A study of Mus musculus with 32 samples.

Results

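The genes described here are 6 Stat transcription factors (Stat2, Stat3, Stat4, Stat5a, Stat5b and Stat6) and 3 suppressors of cytokine signalling (Socs1, Socs2 and Socs3), chosen by symbol from the 24421 genes of a count table made by RNA sequencing of mouse bone marrow. All 9 were in the table and all 9 passed the filter on low counts that left 14154 genes for testing. The mice were female C57BL/6 without any engineered allele or treatment, either 10 weeks old (Young) or 20 months old (Aged). From each age 8 fractions were sorted by flow cytometry and each fraction has 2 libraries, which makes 16 groups and 32 libraries. The fractions with the Lin-, c-kit+ and Sca-1+ phenotype were the hematopoietic stem cells (HSCs, which were CD34-, CD150+, CD48- and Flt3-) and the multipotent progenitors (MPPs). Among the MPPs, all CD34+, MPP1 was CD150+ and CD48-, MPP2 was positive for both, MPP3 was CD48+ only, and MPP4 was CD48+ and Flt3+. The more restricted fractions were the progenitors of granulocytes and macrophages (GMPs, Sca-1- with FcgR and CD34), of megakaryocytes and erythrocytes (MEPs, negative for all of these but c-kit) and of lymphoid cells (CLPs, which had low Sca-1 and c-kit and were the only fraction marked IL-7+). The study gave its aim as finding how HSCs and the progenitors below them change with age.

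Cytokines of the marrow bind receptors that carry Janus kinases. The kinases phosphorylate Stat proteins, which pair, enter the nucleus and bind DNA. Stat3 follows cytokines of the IL-6 family and G-CSF, Stat5a and Stat5b follow thrombopoietin, erythropoietin, IL-3, GM-CSF and IL-7, Stat4 follows IL-12, Stat6 follows IL-4 and IL-13, and Stat2 acts with Irf9 downstream of type I interferon. Several Socs genes are themselves switched on by Stats, and their proteins bind the receptors or the kinases and dampen the signal, so that the pathway limits itself. RNA levels, which are what was measured here, say nothing of phosphorylation and therefore nothing of how active a Stat protein was.

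Because Stat dimers bind the letters TTCNNNGAA (N is any base, and the motif reads the same on both strands), the 300 bases around the start site of each gene, 250 before it and 50 after it, were searched for it in the RefSeq promoters of GRCm38.p6. The longer spacing TTCNNNNGAA, preferred by Stat6, was searched as well. The first motif was in 8.3% and the second in 6.95% of 32851 such windows over all genes. Windows were at hand for 8 of the 9 genes, all but Socs2, and for Cish, a further inhibitor of the Socs family. The sites found, in Socs3, Cish and Stat2, are shown for the letters they share, with the motif in capitals and 8 bases on each side.

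Socs3 site: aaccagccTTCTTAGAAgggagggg
Cish site A: gcccagttTTCCTGGAAagttcttg
Cish site B: ctggaaagTTCTTGGAAatctgtca
Stat2 site: agtttcctTTCCCTAGAActcacggt

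The Socs3 site lies on the minus strand at chr11:117969504-117969528, with the motif 150 bases before the start site. The Cish sites lie on the plus strand at chr9:107296651-107296675 and chr9:107296662-107296686, with the motifs 4 and 15 bases after the start site, and the printed stretches overlap. The Stat2 site holds the longer spacing and lies on the plus strand at chr10:128270280-128270305, with the motif 205 bases before the start. Distances are from the RefSeq start site. In the GENCODE annotation the genes of Socs3 and Cish begin further upstream, so that their sites lie inside the annotated gene, while that of Stat2 lies before it. The windows of Stat3, Stat4, Stat5a, Stat5b, Stat6 and Socs1 held neither motif, which says only that these letters were not in them.

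In the GENCODE annotation of the same assembly, 3 of the genes stand side by side on chromosome 11: Stat5b (100780731 to 100850724, minus strand), Stat5a (100859351 to 100885169, plus strand) and Stat3 (100885098 to 100939540, minus strand). The exons of Stat5a and Stat3 overlap by 72 bases on opposite strands, and the use of strand in counting was not stated. Socs3 is on the same chromosome (117966079 to 117970047). Stat2 (128270559 to 128292849), Stat6 (127642986 to 127660957) and Socs2 (95385362 to 95417180) are on chromosome 10, Stat4 (51987148 to 52107189) is on chromosome 1 and Socs1 (10782240 to 10785536) is on chromosome 16. Stretches of 60 bases that occur in exons of another gene as well made up 9.21% of Stat5b, all of them shared with Stat5a. They made up 7% of Stat5a, almost all shared with Stat5b. A small part of the reads of this pair could therefore have been counted for either. For Stat4 the share was 20.7%, because a processed transcript absent from the count table, Gm28177, covers 1033 bases of its exons on the same strand.

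Libraries held 11237384 to 17723245 counts (median 13489609.5). Levels are given as normalized CPM, the count relative to the library total after scaling by the TMM factors that the test used, and a count of 0 allows up to 0.186 to 0.281 normalized CPM depending on the library, for counting error only. Of the antigens used in the sort, Il7r was at 157 to 201 normalized CPM in CLPs and at 0 to 16.8 elsewhere, Fcgr3 at 473 to 497 in GMPs and at 0.43 to 23.6 elsewhere, and Flt3 at 605 to 1066 in MPP4 and CLPs and at 0 to 297 elsewhere. Klf1, an erythroid factor, was at 974 to 1119 in MEPs and at or below 15.5 in the other groups, so these genes stood highest in the fractions they mark. Levels of the antigen genes that separate HSCs and MPP1 to MPP3 are not reported here. Markers of other cell types were present in some fractions as well, as given below. The study describes pooled marrow of each age and duplicate sorts, and elsewhere calls the 2 samples biologically independent, without saying which mice went into which library. If both duplicates came from one pool, the errors and p-values here cover only the spread between libraries and not that between mice. In sorted bulk samples, fewer cells that make an RNA and less of that RNA per cell cannot be told apart.

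Per kilobase of exon, the scale on which genes can be compared, Socs3 was the most abundant of the 9 in young HSCs at 77.3 normalized CPM per kilobase, followed by Stat5b (49.7) and Stat6 (49.2), and it reached its highest value, 133, in young MPP4. Stat2, Socs1 and Socs2 were the 3 lowest in young HSCs, at 9.31, 11.1 and 8.67. In GMPs and MEPs of both ages the first rank belonged to Stat6 and Stat5b respectively, and Socs3 or Socs2 was last in each of these groups.

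All 9 genes differed among the 8 young fractions and all 9 among the 8 aged fractions (edgeR quasi-likelihood F-test over 7 contrasts, Benjamini-Hochberg adjusted p under 0.01, the level at which a gene is called here). The background was high, since 86.9% of all genes tested were called among young fractions and 85.5% among aged ones, and 1.34% to 68.7% between the fractions of a pair, over 56 pairs of the same age. What the genes did not share was the shape of the difference: 3 patterns stood out in the levels.

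The Stat5 pair was nearly level. Stat5a, a transducer of erythropoietin and thrombopoietin signals, ranged from 121 to 292 normalized CPM over the 32 libraries, and Stat5b from 162 to 336. In young mice Stat5b ran from 334 in MPP2 through 310, 298, 276, 265 and 256 in MPP3, MPP1, HSCs, MPP4 and MEPs to 202 in CLPs and 170 in GMPs. The first 6 of these levels did not separate from their neighbours, and the steps to CLPs and to GMPs did (adjusted p = 0.000364 and 0.00691, edgeR). Stat5a was at 226 to 277 in young MPP2, HSCs, MPP1, MPP3 and MEPs and at 124 to 145 in MPP4, GMPs and CLPs, with one step beyond the spread between the 2 sets (MEPs against MPP4, adjusted p = 7.75e-07, edgeR). In aged mice MEPs were first for Stat5a, with 283. Stat6, the transducer of IL-4, was at 162 to 217 in the first 7 young groups, whose neighbours did not separate, and at 94.9 in young MEPs (adjusted p = 2.23e-07 against MPP2, edgeR).

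Stat3 and Stat4 were high in HSCs and MPPs and low in MEPs. Stat3 fell from 322 normalized CPM in young HSCs by small steps to 185 in GMPs, none of which separated neighbours, and then to 52.3 in MEPs (adjusted p = 1.23e-13 against GMPs, edgeR). In aged mice the same last step, from MPP4 at 227 to MEPs at 49.8, had an adjusted p of 5.57e-15 (edgeR). Stat4 was at 146 in young HSCs, between 100.3 and 126 in the young MPPs, at 66.3 in CLPs, 42.4 in GMPs and 6.09 in MEPs, and each of the last 3 steps lay beyond the spread between libraries (adjusted p = 0.000326, 0.000133 and 4.73e-13, edgeR). Stat2 was the only Stat of the 6 with its first rank in CLPs at both ages, 84.8 in young and 186 in aged mice, against 55.2 and 51.2 in HSCs, the next group in each case (adjusted p = 0.0019 and 1.68e-09, edgeR).

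**Figure D1:**
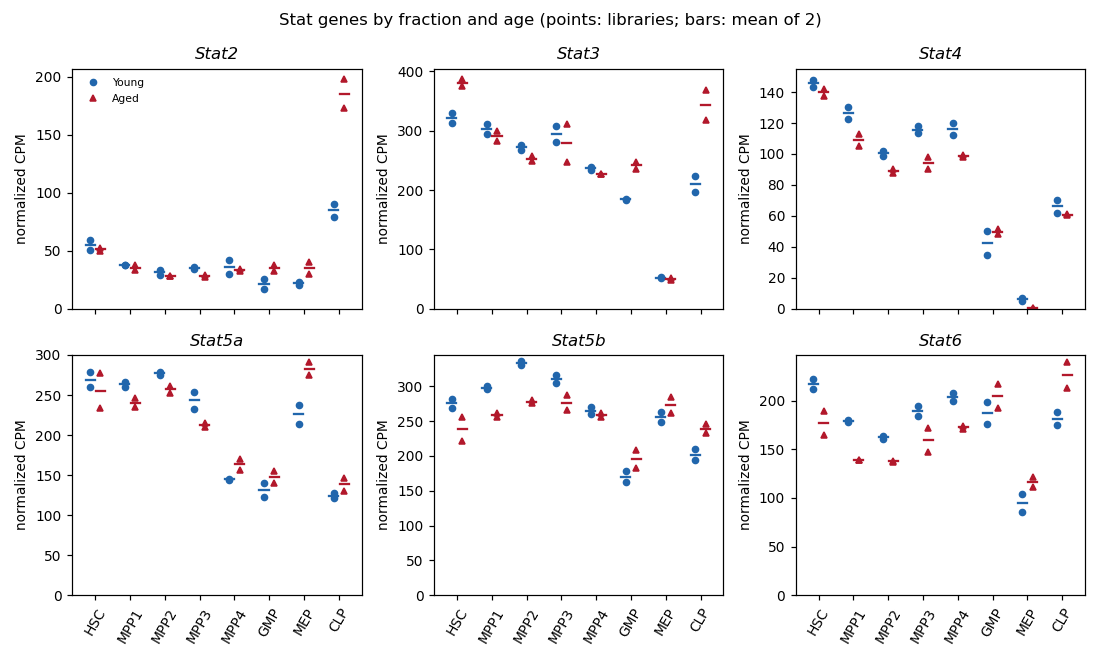
Normalized CPM (vertical axes, linear, from 0) of the 6 Stat genes, 1 panel each, in the 8 fractions (horizontal axis), with a point for each of the 32 libraries and a bar for the mean of 2. Stat2 stands highest in CLPs (84.8 in young and 186 in aged mice), Stat4 is near 0 in MEPs (6.09 and 0.668), and Stat5a and Stat5b stay above 120 in every library.

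The Socs genes were highest in HSCs, MPPs and CLPs and lowest in GMPs and MEPs, apart from Socs2, which was as low in MPP4 as in MEPs of young mice. Socs3, an inhibitor of IL-6 and G-CSF receptors, was at 384 ± 25.0 normalized CPM (SD, n = 2) in young MPP4, 224 ± 5.96 in young HSCs, 153 to 205 in the other young MPPs and 61.8 ± 0.889 in young CLPs. In young GMPs its counts were 0 and 15, and in young MEPs 16 and 0. The step from CLPs to MEPs was 6.82 on the log2 scale (adjusted p = 4.56e-12, edgeR), while GMPs and MEPs were not separable at this depth. In aged mice HSCs took the first place with 297 ± 23.0, ahead of MPP1 with 145 ± 0.713 (adjusted p = 0.00144, edgeR).

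Socs2, which restrains growth hormone and Stat5 signalling, was first in HSCs (82.6 in young and 62.6 in aged mice) and fell along the MPPs. In young mice MPP1 held 41.0, MPP2 and MPP3 about the same (16.2 and 15) and MPP4 5.36. Its level in young CLPs, 55.8, was second, and separated from that in HSCs (adjusted p = 0.00287, edgeR) but not from that in MPP1 (adjusted p = 0.0179). In GMPs it had 0 and 4 counts in young and 0 and 0 counts in aged libraries, at or near the limit that a count of 0 allows, so no fold is given there. Socs1, an inhibitor of the interferon and IL-2 family receptors, was also first in HSCs (32.2 in young and 32.1 in aged mice) and last in MEPs (1.81 and 0.766). In aged mice HSCs separated from MPP1, the next group at 12.5 (adjusted p = 7.09e-05, edgeR), while in young mice they did not separate from MPP4 at 25.3 (adjusted p = 0.202).

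**Figure D2:**
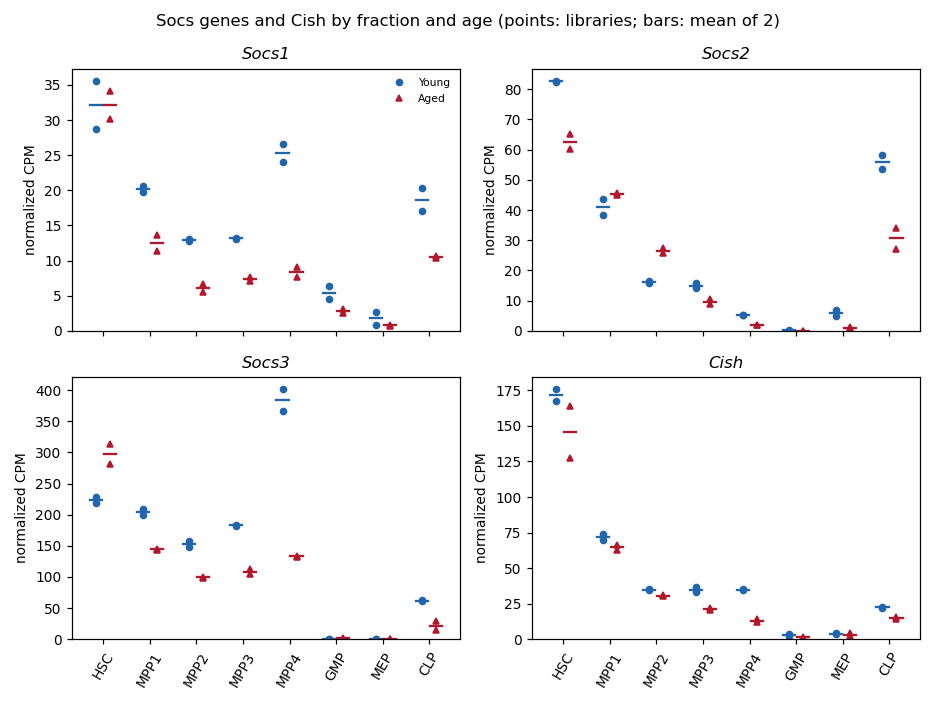
Normalized CPM (vertical axes, linear, from 0) of Socs1, Socs2, Socs3 and the related inhibitor Cish, 1 panel each, in the 8 fractions (horizontal axis), with a point per library and a bar for the mean of 2. Young MPP4 stands apart from aged MPP4 for Socs3 (384 against 133) and Socs1 (25.3 against 8.41), and GMPs and MEPs are near 0 for Socs2 and Socs3.

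With age, the calls among the Stats were mostly for higher levels in restricted progenitors, and those among the inhibitors mostly for lower levels. Over the 72 pairs of gene and fraction, 7 were called higher in aged mice, where 7.01% of all gene and fraction pairs tested were, and 8 were called lower, where 5.57% were. The Stats made up 6 of the 7 higher calls (12.5% of their 48 pairs) and 1 of the 8 lower calls. The Socs genes made up 1 of the higher calls and 7 of the lower ones (29.2% of their 24 pairs). Libraries of the 2 ages did not overlap in most of the 72 pairs, called or not. A lack of overlap therefore adds little to a result here, and its share over all genes was not counted. No member was called in HSCs, MPP1 or MPP3, where 5.4%, 6.8% and 13.9% of all genes were called in either direction. In these 3 fractions 4, 4 and 7 members had an unadjusted p under 0.05 (edgeR), and DESeq2 called 0, 3 and 5. Of the 9 members, 4 were called in each of MEPs and CLPs, where the background was 20.8% and 10.4%, 3 in MPP4 (16.6%), and 2 in each of MPP2 (7.81%) and GMPs (18.9%). With offsets for the GC content and length of each gene (GC and length offsets) the calls were 4 higher and 11 lower, and with DESeq2 they were 10 and 22. Leaving out young GMP replicate 1 or 2 gave 13 lower calls, leaving out young MEP replicate 1 or 2 gave 15 and 16, and leaving out aged GMP replicate 1 gave 4 higher calls.

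**Figure D3:**
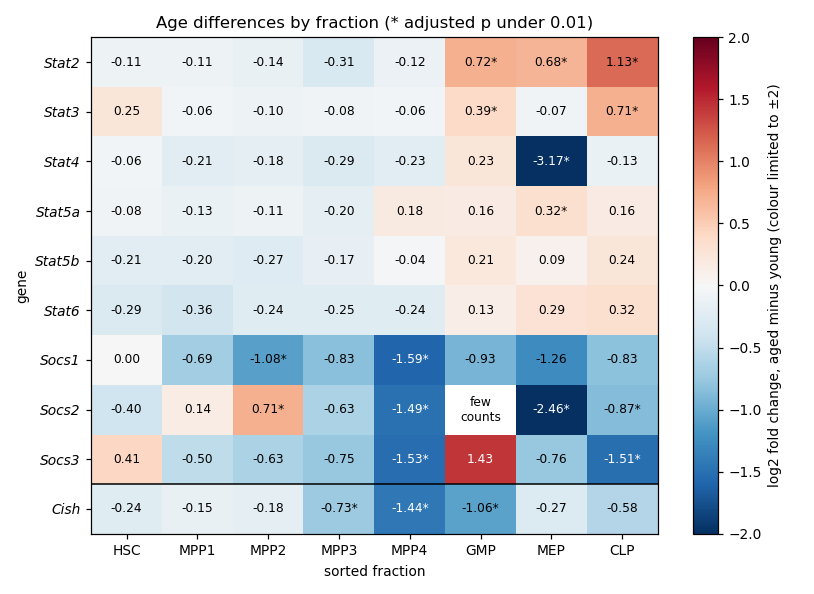
Log2 fold change with age (aged minus young, colour, limited to 2 in either direction, with the value printed) of the 9 genes and, below the line, of Cish, in the 8 fractions, with an asterisk where the adjusted p was under 0.01. Higher calls of Stat2, Stat3 and Stat5a lie in GMPs, MEPs and CLPs, and all 4 of Socs1, Socs2, Socs3 and Cish are called lower in MPP4. The cell of Socs2 in GMPs reads "few counts" in place of a value because it had 4 counts in all.

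Stat2 rose with age in the 3 restricted fractions. In CLPs it was at 90.4 and 79.2 normalized CPM in the young libraries and at 198 and 173 in the aged ones. Both aged libraries stood above both young ones, 2.19-fold in the mean, a log2 fold change of 1.13 ± 0.159 (SE, adjusted p = 3.42e-05, edgeR). In GMPs it was at 17.1 and 25.7 in young against 38.1 and 32.3 in aged libraries, again without overlap (0.72 ± 0.173, adjusted p = 0.00338). In the same GMP libraries, young against aged, the 5 eosinophil markers summed to 1608 to 1706 against 3177 to 4507 normalized CPM (1 called higher) and the 7 basophil and mast cell markers to 704.5 to 704.6 against 312 to 387 (2 lower). The 10 macrophage markers summed to 582 to 620 against 486 to 538 (5 lower, with C1qa, C1qb, C1qc and Fcna at 0 in both aged libraries), the 9 neutrophil markers to 90350 to 91860 against 90780 to 91010 (4 lower) and the 8 erythroid markers to 174 to 213 against 21.2 to 36.7 (4 lower, with Epor at 0 in both aged libraries). The part of these in the rise of Stat2 and Stat3 in GMPs was not tested. In MEPs the values for Stat2 were 23.2 and 20.7 against 29.98 and 40.5 (0.68 ± 0.173, adjusted p = 0.00432), and the aged pair was spread more widely than the young one but did not reach it. From HSCs to MPP4 the log2 fold changes of Stat2 lay between -0.31 and -0.11, none of them called. The call of Stat2 in CLPs held under every alternative tried. That in GMPs was lost without young replicate 1 (log2 fold change 0.44) or aged replicate 1 (0.59). It was also lost with GC and length offsets (adjusted p = 0.0151) and in a fit on the 4 GMP libraries alone (adjusted p = 0.0501, edgeR). That in MEPs was lost without young replicate 1 or 2 or aged replicate 2 (0.41 without the last). It was also lost without the filter on low counts (adjusted p = 0.0104) and in a fit on the 4 MEP libraries (adjusted p = 0.0421, edgeR). With the offsets and a block for replicate number together, the calls of Stat2 in GMPs and in MEPs were both lost.

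Stat3 rose in 2 fractions. In CLPs it was at 198 and 223 normalized CPM in young and at 368 and 318 in aged libraries, a log2 fold change of 0.71 ± 0.0876 (adjusted p = 8.24e-06, edgeR), with no overlap. In GMPs it was at 185 and 184 in young and at 248 and 235 in aged libraries (0.39 ± 0.0877, adjusted p = 0.00196), a smaller difference between tight pairs. In HSCs, the young libraries held 330 and 314 and the aged ones 375 and 388, which do not overlap, but the log2 fold change of 0.25 (95% interval 0.06 to 0.43) had an adjusted p of 0.0754 over all genes. In MEPs it was at 51.6 and 53.0 against 51.4 and 48.3, with an interval of -0.26 to 0.12 on the log2 scale. The difference of Stat3 in GMPs was 0.06 with GC and length offsets (adjusted p = 0.748), and its call was lost without young replicate 1 or 2 or aged replicate 1 (adjusted p = 0.0131, 0.0195 and 0.027, edgeR). That in CLPs was lost only in a fit on the 4 CLP libraries (0.71, adjusted p = 0.0238).

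Stat4, the transducer of IL-12, was the only Stat called lower in any single fraction, and that only in MEPs, where it was lowest. Its counts there were 114 and 68 in young and 6 and 9 in aged libraries, or 7.30 and 4.88 against 0.562 and 0.775 normalized CPM. The young values lay 9.11-fold above the aged ones in the mean (log2 fold change -3.17 ± 0.291, adjusted p = 4.12e-08, edgeR). Markers of lymphoid and of myeloid cells moved with it in the same libraries. The summed level of 10 B lineage markers in MEPs was 243 to 247 normalized CPM at the young age against 2.44 to 3.18 at the old, 9 of the 10 were called lower, and Cd79a, Igll1, Ebf1, Pax5 and Rag1 were at 0 in both aged libraries. Of 12 markers of T, NK and innate lymphoid cells 3 were called lower and 1 higher there, with a sum of 143 to 146 against 80.9 to 81.0, and Cd3e, Thy1 and Icos were at 0 in both aged ones. Of the 10 macrophage markers 7 were called lower (14.1 to 16.3 against 0.375 to 1.81, with C1qa, C1qb, Hmox1, Fcna and Adgre1 at 0 in both aged libraries), and of the 9 neutrophil markers 4 were lower and 1 higher (261 to 290 against 28.5 to 124). Il7r, an antigen that the sort of MEPs selected against, was at 9.99 and 16.8 in young and at 0.187 and 0.43 in aged MEPs. The part of these cells in the result for Stat4 was not tested. The call of Stat4 in MEPs held under every alternative tried. In the other 7 fractions the log2 fold change of Stat4 lay between -0.29 and 0.23.

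Stat5a was called in MEPs only, with 214 and 238 normalized CPM in young and 274 and 292 in aged libraries, a log2 fold change of 0.32 ± 0.0859 (adjusted p = 0.00609, edgeR). That call was lost in 23 of 32 fits that left out 1 library, among them all 4 without a MEP library. It was also lost with DESeq2 size factors (adjusted p = 0.0167) and without the filter on low counts (adjusted p = 0.0347, edgeR). The same held with GC and length offsets (0.11, adjusted p = 0.312, edgeR), with these and a block for replicate number together, and in a fit on the 4 MEP libraries. Stat5b was called in no fraction. Its log2 fold changes were all between -0.27 and 0.24, with standard errors of 0.075 to 0.0759, and the lowest adjusted p was 0.019, in MPP2, where the young libraries held 331 and 336 and the aged ones 280 and 276. Stat6 was likewise called in none, with log2 fold changes from -0.36 in MPP1 (180 and 178 against 139 and 139 normalized CPM, adjusted p = 0.012) to 0.32 in CLPs (175 and 188 against 239 and 213, adjusted p = 0.0201). In both of these fractions the aged libraries of Stat6 did not overlap the young ones, and the difference in MPP1 was called in 8 of 9 other fits and in 6 of 32 that left out 1 library, none of these without an MPP1 library.

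The rise of Stat2 and Stat3 in CLPs came in libraries that differed by age in many cell type markers. The 7 basophil and mast cell markers were all called lower, with a sum of 1796 to 1853 normalized CPM in young and 8.96 to 16.4 in aged CLPs, and Prss34 and Cd200r3 were at 0 in both aged libraries. All 9 neutrophil markers were called lower (1982 to 2037 against 362 to 378), as were 8 of 10 macrophage markers (352 to 384 against 301 to 417, 1 called higher, with Fcna at 0 in aged libraries), 4 of 5 eosinophil markers (590 to 604 against 110 to 324) and 7 of 10 B lineage markers (3263 to 3313 against 1761 to 1835). Of the 8 dendritic cell markers 4 were called higher and none lower, with a sum of 5658 to 5728 in young and 8243 to 11060 in aged CLPs, and 6 of 7 megakaryocyte and platelet markers were called higher (38.4 to 40.0 against 130 to 215). Ly6a, which encodes the Sca-1 antigen of the gate, was at 34.4 and 35.9 in young and at 221 and 207 in aged CLPs. The part of these cells in the results for Stat2, Stat3, Socs2 and Socs3 in CLPs was not tested.

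Among the inhibitors, Socs3 fell most clearly in MPP4. The young libraries held 401 and 366 normalized CPM (6487 and 4811 counts) and the aged ones 134 and 131 (1810 and 1818 counts). The groups were far apart, 2.89-fold in the mean, and the duplicates close (log2 fold change -1.53 ± 0.235, adjusted p = 5.19e-05, edgeR). In CLPs it was at 61.1 and 62.4 in young and at 28.4 and 14.9 in aged libraries (-1.51 ± 0.259, adjusted p = 0.000275), where the aged pair differed by nearly the size of its own lower value and still did not overlap the young pair. In MPP1, MPP2 and MPP3 the log2 fold changes were -0.50, -0.63 and -0.75, with adjusted p from 0.023 to 0.175 (edgeR), none of them called. In HSCs it was at 228 and 219 in young and at 281 and 313 in aged libraries, a log2 fold change of 0.41 that was not called (adjusted p = 0.298). The call of Socs3 in MPP4 held under every alternative tried, and that in CLPs was lost only in a fit on the 4 CLP libraries (adjusted p = 0.0313, edgeR).

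Socs1 was called lower in MPP4 and MPP2. In MPP4 it was at 24.0 and 26.6 normalized CPM in young and at 7.71 and 9.11 in aged libraries (log2 fold change -1.59 ± 0.234, adjusted p = 3.3e-05, edgeR). In MPP2 it was at 12.9 and 13.03 against 6.72 and 5.53 (-1.08 ± 0.242, adjusted p = 0.00406). The call of Socs1 in MPP4 held under every alternative tried, while that in MPP2 was lost with libraries thinned to equal depth (adjusted p = 0.0123), without young replicate 1 or 2 (adjusted p = 0.0313 and 0.0307) and without aged replicate 1 or 2 (adjusted p = 0.0233 and 0.0716, edgeR). In MPP1, MPP3, GMPs, MEPs and CLPs the log2 fold changes were from -1.26 to -0.69, with adjusted p from 0.0141 to 0.0482 (edgeR), none of which passed. HSCs were the exception, at 28.7 and 35.6 in young and at 30.1 and 34.2 in aged libraries, with a log2 fold change of 0.00 (95% interval -0.45 to 0.45). The difference of -1.26 was that in MEPs, with 43 and 12 counts in young and 9 and 8 in aged libraries. The lower young value there, 0.861 normalized CPM, was close to the higher aged one, 0.843.

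Socs2 was called in 4 fractions, more than any other member, and in both directions. In MPP2 it rose, from 16.5 and 15.9 normalized CPM in young to 25.9 and 27.3 in aged libraries (0.71 ± 0.166, adjusted p = 0.00563, edgeR). In MPP4 it fell, from 5.32 and 5.403 to 1.93 and 1.88 (-1.49 ± 0.247, adjusted p = 0.000133). In MEPs it fell from 6.98 and 4.88 to 0.843 and 1.29, which was 109 and 68 counts against 9 and 15 (-2.46 ± 0.285, adjusted p = 1.49e-06), beside the lymphoid markers given for Stat4. In CLPs it was at 53.5 and 58.1 in young and at 27.1 and 34.1 in aged libraries (-0.87 ± 0.158, adjusted p = 0.000587). None of these 4 comparisons had overlapping libraries, which was also so for most pairs of member and fraction that were not called. In MPP2, where Socs2 rose and Socs1 fell, several marker sums (young against aged libraries) moved too. They were 223 to 230 against 75.3 to 79.4 for macrophages (5 of 10 called lower), 2592 to 2711 against 1879 to 1897 for neutrophils (5 of 9 lower) and 1512 to 1516 against 979.6 to 1001 for erythroid cells (4 of 8 lower). For megakaryocytes and platelets they were 814.5 to 847 against 546.5 to 557 (3 of 7 lower), and for basophils and mast cells 465 to 472 against 312 to 334 (3 of 7 lower and 1 higher). Their part in the results for Socs1 and Socs2 in MPP2 was not tested. In HSCs, where Socs2 was highest, it was at 82.5 and 82.7 against 60.1 and 65.1, a log2 fold change of -0.40 with an adjusted p of 0.104. The call of Socs2 in MPP4 held under every alternative tried. That in MPP2 was lost without any one of its 4 libraries (adjusted p = 0.0462 and 0.0567 without young replicate 1 and 2, 0.0267 and 0.0433 without aged replicate 1 and 2), that in CLPs without young replicate 2 (adjusted p = 0.0116) or aged replicate 1 (adjusted p = 0.024), and those in CLPs and MEPs in fits on their own 4 libraries (adjusted p = 0.0223 and 0.0142, edgeR).

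In MPP4, where all 3 Socs genes fell, some marker lists moved as well. The sum of 7 megakaryocyte and platelet markers was 257 to 266 normalized CPM in young and 82.6 to 82.9 in aged MPP4 (3 called lower), and that of 10 macrophage markers 113 to 124 against 62.5 to 63.0 (7 called lower). Erythroid markers summed to 913 to 1081 against 504 to 636 (2 of 8 lower), basophil and mast cell markers to 119 to 125 against 71.1 to 76.3 (2 of 7 lower, with Fcer1a and Cd200r3 at 0 at both ages and Prss34 at 0 in aged libraries), and neutrophil markers to 797.5 to 852 against 890.5 to 924 (2 of 9 higher). B lineage markers summed to 55.6 to 66.5 and 49.7 to 51.4 (0 called), with Pax5 at 0 in both ages and Cd79a and Igll1 at 0 in aged libraries only. The antigen gene Flt3, on which the gate of MPP4 rests, was at 1059 and 1066 in young and at 682 and 782 in aged libraries. The part of these in the fall of Socs1, Socs2 and Socs3 was not tested.

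Whether the effect of age differed between fractions was tested directly. An F-test over the 8 age differences called 8 of the 9 genes, where 34.9% of all genes were called. The exception was Socs1 (adjusted p = 0.017, edgeR), and the lowest adjusted p were those of Socs2 (2.04e-06) and Stat4 (5.43e-06). Averaged over MPP1 to MPP4, 6 of the 9 genes were lower in aged mice and none higher, where 17.7% of all genes were called lower and 18.9% higher. They were Socs1 (-1.05 ± 0.118, adjusted p = 2.37e-07), Socs3 (-0.85 ± 0.117, adjusted p = 3.41e-06), Socs2 (-0.32 ± 0.0955, adjusted p = 0.00964), Stat6 (-0.27 ± 0.0469, adjusted p = 5.35e-05), Stat4 (-0.23 ± 0.0604, adjusted p = 0.00344) and Stat5b (-0.17 ± 0.0375, adjusted p = 0.000839, all edgeR). The mean over these 4 fractions hides opposite signs for Socs2, which rose in MPP2 and fell in MPP4. Marker sums moved in MPP3 as well (young against aged libraries). They were 204 to 218 against 65.6 to 68.6 for macrophages (8 of 10 called lower). For neutrophils they were 4583 to 4847 against 2272 to 2286 (5 of 9 lower). Of the erythroid, megakaryocyte and platelet, and eosinophil markers 5 of 8, 5 of 7 and 3 of 5 were lower. Of 7 basophil and mast cell markers 1 was higher and 1 lower. Their part in the results on the MPP mean was not tested. Leaving out 1 library at a time ended the F-test call of Stat5a in 28 of 32 fits (highest adjusted p = 0.0331) and the calls on the MPP mean of Socs2 in 28 (highest adjusted p = 0.0433) and of Stat4 in 13 (highest adjusted p = 0.0227). With GC and length offsets Stat5a (adjusted p = 0.0247) and Stat5b (adjusted p = 0.0121) were not called by the F-test, nor Socs2 on the MPP mean (adjusted p = 0.0274, edgeR).

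Against that mean, the age difference in HSCs was greater for Socs3 alone (difference of log2 fold changes 1.26 ± 0.259, adjusted p = 0.00421, edgeR), where 1.91% of all genes were called greater. For Socs1 the difference was 1.05 ± 0.247 with an adjusted p of 0.0117, and for Stat3 0.32 ± 0.0971 with an adjusted p of 0.0447. The other 6 differences for HSCs lay between -0.08 and 0.17. Some marker lists moved in HSCs as well, young against aged libraries. The 9 neutrophil markers summed to 274 to 298 against 636 to 819 normalized CPM (6 called higher). The 7 basophil and mast cell markers summed to 508 to 515 against 495.5 to 589 (4 higher). The 10 macrophage markers summed to 72.8 to 85.5 against 35.1 to 49.5 (3 lower). The part of these in the results for HSCs was not tested. The call of Socs3 was lost without young HSC replicate 1 or 2 (adjusted p = 0.0258 and 0.0452) or aged HSC replicate 2 (adjusted p = 0.0151). In CLPs the age difference was greater than the mean over MPPs for 4 Stats, where 10.3% of all genes were called greater: Stat2 (1.3 ± 0.179, adjusted p = 9.31e-06), Stat3 (0.78 ± 0.0977, adjusted p = 2.9e-06), Stat6 (0.59 ± 0.105, adjusted p = 0.00015) and Stat5b (0.41 ± 0.0844, adjusted p = 0.000646, edgeR). No member was called smaller in CLPs, and Socs2 and Socs3 had the lowest differences, -0.55 and -0.66 (adjusted p = 0.0269 and 0.0785). Stat5b was not called without young CLP replicate 1 (0.33, adjusted p = 0.0174) or aged CLP replicate 1 (0.35, adjusted p = 0.0108). With DESeq2, Socs2 and Socs3 were called smaller in CLPs (adjusted p = 0.00342 and 0.00248).

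**Figure D4:**
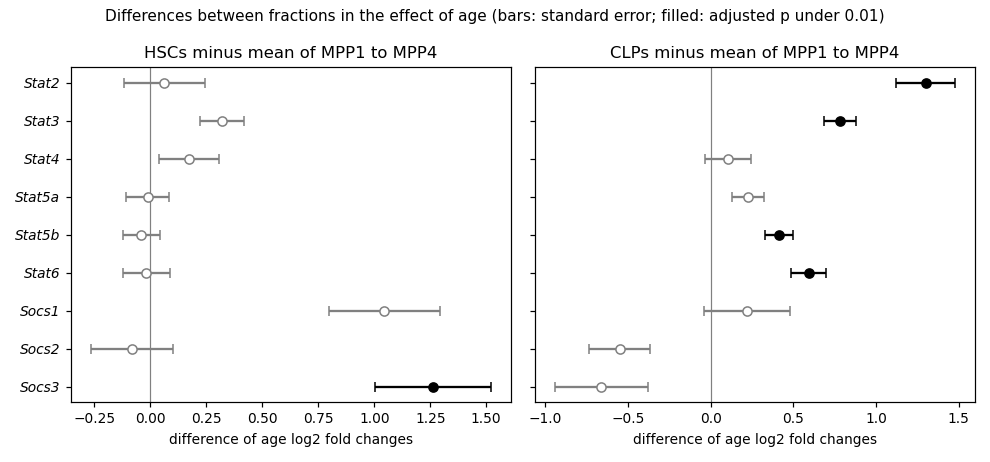
Differences of the age log2 fold changes (horizontal axes) between HSCs and the mean of MPP1 to MPP4 (left) and between CLPs and that mean (right), with bars for the standard error and filled points where the adjusted p was under 0.01. Socs3 is the filled point for HSCs (1.26), and Stat2, Stat3, Stat5b and Stat6 are the filled points for CLPs (0.41 to 1.3).

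Cish, an inhibitor switched on by Stat5, was called lower in MPP4 (34.3 and 35.3 against 13.9 and 11.9), MPP3 (33.4 and 36.4 against 21.8 and 20.3) and GMPs (3.85 and 2.35 against 1.16 and 1.78), with log2 fold changes of -1.44, -0.73 and -1.06 (adjusted p = 8.03e-07, 0.000998 and 0.00726, edgeR). The part of the markers given above for these fractions in the fall of Cish was not tested. Like Socs2, Cish was first in HSCs (172 in young and 146 in aged mice). Socs7 was called higher in MEPs (3.71 and 4.31 against 9.65 and 7.401, adjusted p = 0.00178), and Socs4, Socs5 and Socs6 were called in no fraction.

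Of the kinases upstream, Jak3, which pairs with the common gamma chain of the IL-2 and IL-7 receptors, was called higher in HSCs (349 and 368 against 448 and 518 normalized CPM, log2 fold change 0.43, adjusted p = 0.00196, edgeR) and in MPP4 (0.34, adjusted p = 0.00535), and lower in MEPs (-0.59, adjusted p = 8.14e-05). Tyk2, a kinase of interferon and IL-12 receptors, was higher in CLPs (90.1 and 99.3 against 168 and 134, adjusted p = 0.000173). Jak2, the kinase of the thrombopoietin and erythropoietin receptors, was lower in MPP4 (103 and 84.6 against 70.9 and 66.6, adjusted p = 0.00865), and Jak1 was called in none.

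Of 34 receptor chains that signal through these kinases, 10 were called higher and none lower in CLPs, where 5.71% of all genes were called higher, with a median log2 fold change of 0.41 against 0 over all genes. In MEPs 1 was higher and 8 lower, where 11.7% of all genes were called lower. Among the chains called in the most fractions, Il21r was lower in MPP1 to MPP4 and MEPs and higher in CLPs (68.7 and 60.04 against 143 and 94.8, adjusted p = 6.07e-05). Csf3r, the G-CSF receptor, was higher in HSCs (63.9 and 54.1 against 117 and 148, adjusted p = 1.14e-07, edgeR), MPP1 and GMPs and lower in MEPs. Its rise in HSCs came beside the neutrophil markers given above for that fraction. Il11ra1 was higher in MPP3, MPP4, GMPs and CLPs.

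Of 14 regulators that dampen the pathway in other ways than Socs, 3 were called higher and none lower in CLPs, where 5.71% of all genes were called higher. In GMPs 3 were higher and 1 lower, where 9.93% and 8.97% of all genes were, and in MEPs 1 was higher and 2 lower, where 9.08% and 11.7% were. In each of MPP1 and MPP3 1 was lower, where 2.09% and 5.79% of all genes were, and in HSCs, MPP2 and MPP4 none was called, where 5.4%, 7.81% and 16.6% of all genes were called in either direction. Usp18, a brake on the interferon receptor, was lower in MPP3 (33.9 and 36.3 against 25.5 and 23.2) and GMPs and higher in CLPs (28.7 and 28.9 against 54.2 and 44.4, adjusted p = 0.000198, edgeR). Pias3, which inhibits Stat3, was higher in GMPs (5.49 and 4.29 against 9.04 and 8.99) and MEPs, Sh2b3 (the adaptor Lnk) was lower in MPP1 and higher in GMPs, and the phosphatase gene Ptpn6 was higher in CLPs (567 and 586 against 1102 and 828).

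Known target genes of Stat3 and Stat5 were called in both directions. Of 18, 5 were lower and 2 higher in each of MPP1 to MPP4, where 2.09%, 3.31%, 5.79% and 6.27% of all genes were called lower and 4.71%, 4.49%, 8.14% and 10.3% higher, and 7 were lower and 1 higher in CLPs, where 4.73% were lower. In HSCs 4 were higher and 1 lower, where 3.74% and 1.66% of all genes were. In GMPs 2 were higher and 3 lower, where 9.93% and 8.97% were. In MEPs 1 was higher and 5 lower, where 9.08% and 11.7% were. Mcl1, a survival gene, was lower in every fraction but HSCs, most in MPP4 (955 and 739 against 462 and 423, log2 fold change -0.94, adjusted p = 1.29e-07, edgeR). Junb was lower in MPP1 to MPP4 and CLPs, with 2428 and 2379 against 1013 and 1057 in MPP4 (-1.22, adjusted p = 7.53e-06), and higher in GMPs. Cdkn1a, a cell cycle inhibitor, was lower in all MPPs and MEPs and higher in HSCs (33.7 and 34.4 against 45.1 and 54.3, adjusted p = 0.00632). Bcl3 was higher in HSCs and all MPPs by 1.04 to 1.25 on the log2 scale and lower in MEPs. Stat3 itself was called in none of HSCs and MPP1 to MPP4, and Stat5a and Stat5b in none of these fractions taken singly, while Stat5b was called lower on the mean of MPP1 to MPP4 (-0.17, adjusted p = 0.000839).

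The partner and targets of Stat2 did not move with it in every fraction. In CLPs, where Stat2 rose, 5 of 12 were called higher and none lower (median log2 fold change 0.69), against 5.71% of all genes called higher, with Irf7 at 87.6 and 88.4 in young and at 340 and 213 in aged libraries (1.65, adjusted p = 2.1e-07, edgeR). In GMPs and MEPs, where it rose as well, 0 and 1 were higher, where 9.93% and 9.08% of all genes were, and 1 and 2 lower, where 8.97% and 11.7% were. Bst2 was among those called higher in CLPs and was the gene called higher in MEPs, and it is also on the list of dendritic cell markers. Rsad2, an antiviral gene, fell in both fractions, from 12.5 and 13.4 to 1.88 and 2.49 in GMPs (-2.56, adjusted p = 9.73e-09). In MPP2, MPP3 and MPP4, where Stat2 was not called, 4, 4 and 3 of the 12 were lower and none higher, where 3.31%, 5.79% and 6.27% of all genes were called lower. Ifit3 fell in MPP3 from 11.9 and 12.7 to 3.28 and 3.86 (-1.78, adjusted p = 0.00046), and Ifit1 from 30.6 and 32.9 to 12.6 and 13.2 (-1.3, adjusted p = 0.000162). Of 10 genes that Stat6 or Stat4 are known to induce, 8 were tested (Arg1 and Ifng had too few counts). Chil3 was called in 5 fractions, higher in HSCs (2.59 and 1.56 against 21.0 and 20.7) and lower in MPP2, MPP3 (112 and 108 against 17.5 and 21.8), GMPs and CLPs. These changes of Chil3 came beside the marker changes given above for the same fractions. Il4ra was higher in CLPs, and Il4ra and Gata3, which is also one of the innate lymphoid markers, were lower in MEPs.

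Of 85 age differences of genes named from these lists, 21 were called under every alternative and without any one library of their own fraction. Among them were Csf3r and Chil3 in HSCs, Cish, Il21r, Il11ra1, Mcl1, Cdkn1a and Junb in MPP4, Cdkn1a in MPP2, Rsad2 in MPP2, MPP3, MPP4 and GMPs, Ifit1 in MPP3, and Chil3 in MPP2, MPP3 and CLPs. The other 64, among them Jak3 in HSCs, Jak2 in MPP4 and Irf7 in CLPs, lost their call under at least 1 of them.

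Across the 16 group means of log2 normalized CPM, points that share depth, library protocol and lineage, Stat3 and Stat4 ran together (Pearson r = 0.935, n = 16 groups), Socs1 ran with Stat4 (0.862) and Socs3 (0.858), and Stat5a with Stat5b (0.755). Stat2 had no r above 0.526 with another member. Over 9557 genes with at least 10 CPM on average, the genes most like Stat4 were Nbeal2 (0.994), Smad1 (0.991) and Kctd17 (0.99), those most like Socs3 were Slc12a7 (0.989), Plk2 (0.988) and Lrrn4 (0.987), and those most like Stat3 were Tmem106c (0.986), Cd200r1 (0.982) and Arf3 (0.981). For Stat6 they were Agtrap (0.964), Pi4k2a (0.938) and Mxd4 (0.934), for Socs1 Ube2b (0.966), Xrcc4 (0.958) and Otud1 (0.957), and for Stat2 R3hdm4 (0.957), AU040320 (0.951) and Ctsl (0.944). Socs2 was closest to Ngly1 (0.938), Plxdc2 (0.934) and Arhgap12 (0.919), Stat5a to C530008M17Rik (0.92), Tgfbr3 (0.915) and Clstn3 (0.915), and Stat5b to Tnik (0.913), Nrip1 (0.907) and Pitpnc1 (0.905). These values describe likeness of levels over the same 16 groups.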

How the data were processed

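Per the labels and the study's methods, total RNA was amplified with the SMARTer Ultra Low Input kit, single reads were aligned to mm10 with TopHat2 2.0.13 and Bowtie2 2.1.0, and StringTie gave gene counts. The counts are deposited raw, as whole numbers, and without molecular identifiers, so PCR copies were counted as reads. Use of strand was not stated. A table of counts that the authors normalized with DESeq2, and 8 tables of their own comparisons (log2 fold changes and p-values), were not used.

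Counts were tested with edgeR 4.0.16 (quasi-likelihood, R 4.3.3) on all 32 libraries, with TMM normalization (factors 0.807 to 1.11), filterByExpr over the 16 groups and 1 mean per group (residual degrees of freedom 16, common dispersion 0.0127). Contrasts were two-sided and adjusted by the Benjamini-Hochberg method over 14154 genes, and called at an adjusted p under 0.01. Levels are TMM-normalized CPM, and likeness used log2 CPM with a prior count of 2. GENCODE M21 matched 23350 of the 24421 symbols directly and 677 through an older symbol.

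The 9 members and all gene and marker lists were chosen with earlier results of these data known. Named from each list were all family members and Janus kinases and otherwise up to 4 genes, those called with age in the most fractions, ties going to the largest called fold change. Some genes that this rule names are not reported here. The mean over MPP1 to MPP4 was added as a result after the data were seen. Alternatives were DESeq2 1.42.0 as a test and for size factors, no low-count filter, a replicate block, offsets for GC content and length, thinning to equal depth, other thresholds, separate fits and leaving out each library. The scripts were tested on simulated data.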

Additional observations from a re-analysis of the deposited data

Results flagged for a closer look

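The age effect of 8 of the 9 genes was set apart because it differed among the 8 fractions by a direct test of that difference (edgeR quasi-likelihood F-test on the 8 age differences, adjusted over all genes, where 34.9% of genes were called). The adjusted p were 8.68e-05 for Stat2, 5.51e-05 for Stat3, 5.43e-06 for Stat4, 0.00713 for Stat5a, 0.00101 for Stat5b, 0.000289 for Stat6, 2.04e-06 for Socs2 and 0.000611 for Socs3. The calls of Stat5a and Stat5b by this test were lost with GC and length offsets. That of Stat5a was also lost in 28 of 32 fits that left out 1 library. For 4 Stats the log2 fold change with age was greater in CLPs than the mean over MPP1 to MPP4, by 1.3 for Stat2, 0.78 for Stat3, 0.41 for Stat5b and 0.59 for Stat6. For Socs3 it was greater in HSCs than that mean, by 1.26. The calls of Socs3 in HSCs and of Stat5b in CLPs were each lost without some single libraries of the fraction, as given above. Groups of 2 libraries are too small to ask whether a single library lies far from the rest of its group.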

How the results depend on the processing

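Of the 15 calls of age differences among the 9 genes, 5 held under each of the 9 other fits and without any one library of the fraction (Socs1, Socs2 and Socs3 in MPP4, Stat4 in MEPs and Stat2 in CLPs). Over all 15 calls and these alternatives, 155 values kept the call and 40 lost it with the direction kept, and no called value turned its sign. For the pairs of gene and fraction not called, 38 values passed the threshold, and 29 of the rest had the other sign. For the genes named from other lists, 904 values kept the call and 200 lost it. The count of higher calls (7) became 4 with GC and length offsets, 3 with these and the replicate block together, 3 in fits on the 4 libraries of a fraction, 1 with a log2 fold change of at least 1 required as well, and 11 at an adjusted p under 0.05. The count of lower calls (8) became 18 at that level and 22 with DESeq2. The count of genes whose age difference was greater or smaller in HSCs than over the MPPs (1) became 2 with DESeq2 size factors, 2 with the offsets, 3 with DESeq2 and 3 at an adjusted p under 0.05. The cause of these changes was not tested. Leaving out 1 library at a time gave 4 to 7 higher and 7 to 16 lower calls, 7 to 9 genes that differed in age effect among fractions, 9 to 9 among young and 9 to 9 among aged fractions, 3 to 5 for CLPs and 0 to 2 for HSCs against the MPPs, and 4 to 6 lower on the MPP mean. The 0 for HSCs came without young HSC replicate 1 or 2 or aged HSC replicate 2, and the 2 without any of the young GMP or MEP libraries. DESeq2 size factors shifted all log2 fold changes by -0.05 to 0.01 in a fraction. DESeq2 called 1414 to 3768 genes in a fraction and fits on 4 libraries 128 to 3336, against 764 to 2943.

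Nothing in the labels says that libraries with the same number were paired. The correlation of same-numbered libraries' deviations lay between -0.29 and 0.19 over the fractions. The replicate block gave 7 higher and 9 lower calls. With the numbers of the aged MPP1 libraries crossed, an alternative chosen after seeing the data, the counts were 7 and 9. Depth limits Socs2 in GMPs, with 4 counts in all, Socs3 in GMPs and MEPs, and Socs1 in MEPs.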
